A study of Ovis aries with 30 samples.

Results

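The thyroid gland of newborn lambs kept indoors for 2 days at 20–22 °C (ambient temperature, AT) was compared with that of control lambs taken at the start of the experiment. The comparison holds 9 of the 30 RNA libraries of the study, which are the 6 AT and the 3 control libraries of thyroid tissue, and 16215 of the 28524 genes in the count table, which are those with at least 10 reads in at least 10 of the 15 thyroid libraries. All lambs were newborn Romney lambs (Ovis aries), 15 in number, and each gave a thyroid and a brown adipose tissue (BAT) library. Controls were sampled soon after being brought indoors, within about 24 h of birth, so the AT lambs were about 2 days older. The study left out a control library of each tissue for its outlying counts, whereas all controls were kept here and each was left out in turn. Housing, temperature and age changed together between the groups and cannot be told apart. A further 6 lambs spent the same 2 days at 4 °C (cold), and their thyroid libraries entered the fit so that the 3 groups shared the estimate of the spread. Each lamb was a twin from a different dam, the groups held both sexes, AT and cold lambs were penned with their dams, and the sources used here state no genetic change or agent in any group. The tissue is bulk thyroid, so fewer cells of a type and less RNA per cell cannot be told apart.

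The thyroid gland makes thyroid hormone from thyroglobulin (TG), a very large protein that follicular cells fold in the endoplasmic reticulum (ER) and secrete into the follicle lumen. Iodide enters the cell through SLC5A5, it is coupled to TG with hydrogen peroxide from the dual oxidases DUOX1 and DUOX2, and lysosomal cathepsins later release the hormone from TG. Thyrotropin from the pituitary controls each step through its receptor TSHR and cyclic AMP. Birth brings a surge of thyrotropin and thyroid hormone that supports heat production in the newborn, after which both decline over the following days.

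Values are normalized counts, which are the deposited read counts divided by a size factor per library. The size factors rest on HUWE1, ACTB and RPL19, which the study took as its 3 reference genes. Differences are log2FC, AT minus control, from a 2-sided quasi-likelihood test in edgeR, with p-values adjusted over all tested genes by the Benjamini-Hochberg method. The value after ± is an approximate standard error (SE). It is the size of the log2FC divided by the square root of the F statistic of the test. A gene was called at a log2FC of at least 1 in size and an adjusted p under 0.05. By these thresholds 344 genes were higher in AT lambs (2.12% of those tested) and 797 were lower (4.92%), together 1141 genes (7.04%). The normalized counts of the 6 AT and the 3 control libraries did not overlap for 694 of the 1141 called genes. Over all tested genes they did not overlap for 12.5%, with 3.39% higher in every AT library and 9.13% lower.

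The libraries held between 25062784 and 30124871 counts, with size factors from 0.641 to 1.229. Of the 3 controls, Control 2 had the lowest depth and Control 3 a size factor of 0.771 from the reference genes against 1.012 from trimmed mean of M-values (TMM) scaling over all genes. Over the tested genes the median log2FC lay at −0.21 with the reference genes, −0.01 with TMM and −0.02 without Control 3, so list medians are read against these values. With TMM the calls turned from 69.9% lower to 42.6% lower, with 518 genes higher (3.19%) and 385 lower (2.37%). All 385 genes called lower with TMM and 337 of the 344 genes called higher with the reference genes were called with both scalings. When each control was left out in turn, 285 genes (1.76%) were called in the same direction in all 3 fits, 119 higher (0.734%) and 166 lower (1.02%), and such a gene is described below as held without each control. Fitted on the AT and control libraries alone, without the cold libraries, the test called 92 genes higher and 234 lower. Without AT 3 it called 1210 lower, and without both muscle-rich libraries (AT 3 and Control 1) 1411, an alternative chosen after seeing the data.

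**Figure D1:**
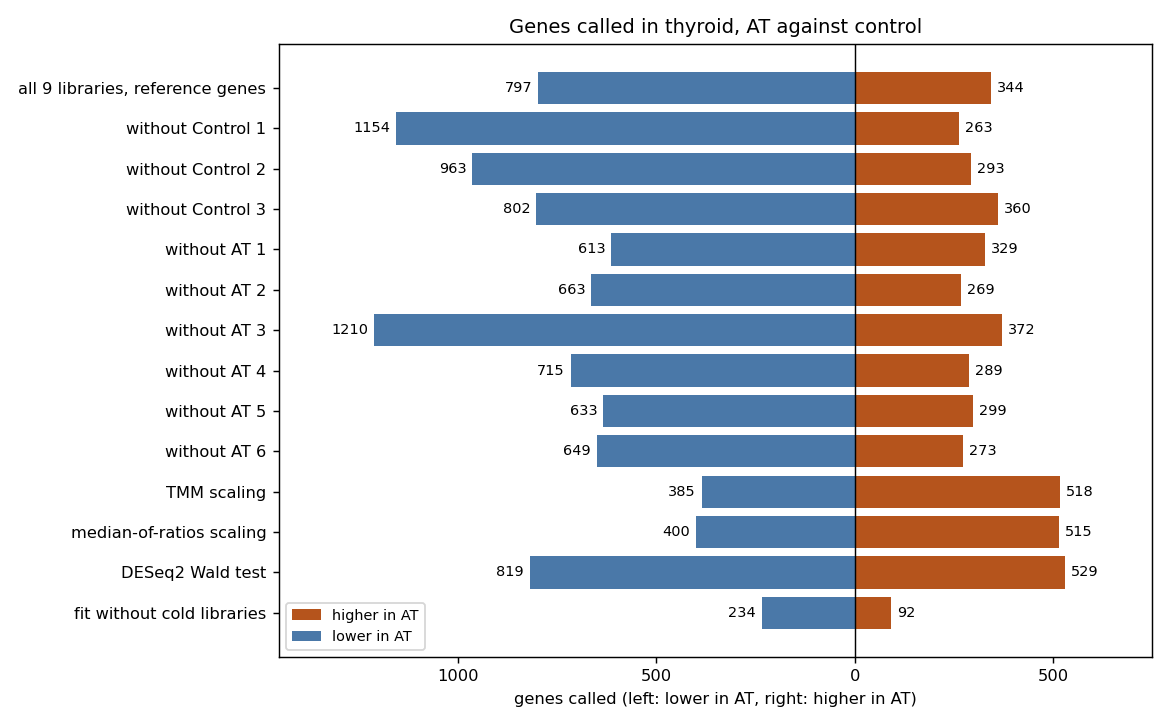
Bars give the number of genes called lower (left, blue) and higher (right, orange) in AT than in control thyroid under the settings named on the axis, with the count beside each bar. Among the settings drawn, the lower calls ranged from 234 in the fit without cold libraries to 1210 without AT 3, and with TMM the higher calls (518) outnumbered the lower calls (385).

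Markers of skeletal muscle, thymocytes and C cells varied within the groups. The summed normalized counts of the 20 skeletal muscle markers in the table were 4439796 in AT 3 and 457888 in Control 1, against 1038 to 5707 in the other 7 libraries. Thymocyte markers summed to 3129 in AT 2 and 1753 in AT 3, against 129 to 278 elsewhere, and the summed C cell markers spanned 1504 to 283072 within the AT group. CHGA, a granule protein of endocrine cells, was at 41589 in Control 2, against 364 and 9.07 in the other controls. Summed parathyroid markers were 9838 in Control 2, against 448 and 227 in the other controls and 360 to 2259 in AT lambs. A pair of unnamed genes took 27.8% of the counts of Control 2, against 5.18% to 14.9% in the other AT and control libraries. Control 2 also had the lowest median correlation with the other thyroid libraries (0.879). By edgeR 0 of the tested muscle, C cell and thymocyte markers were called. Follicular cell markers were strongly expressed in all 9 libraries, where TG alone took 2.99% to 14.2% of the counts, except that SLC26A4 was at 0 in every control and at a highest value of 0.941 in an AT library.

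**Figure D2:**
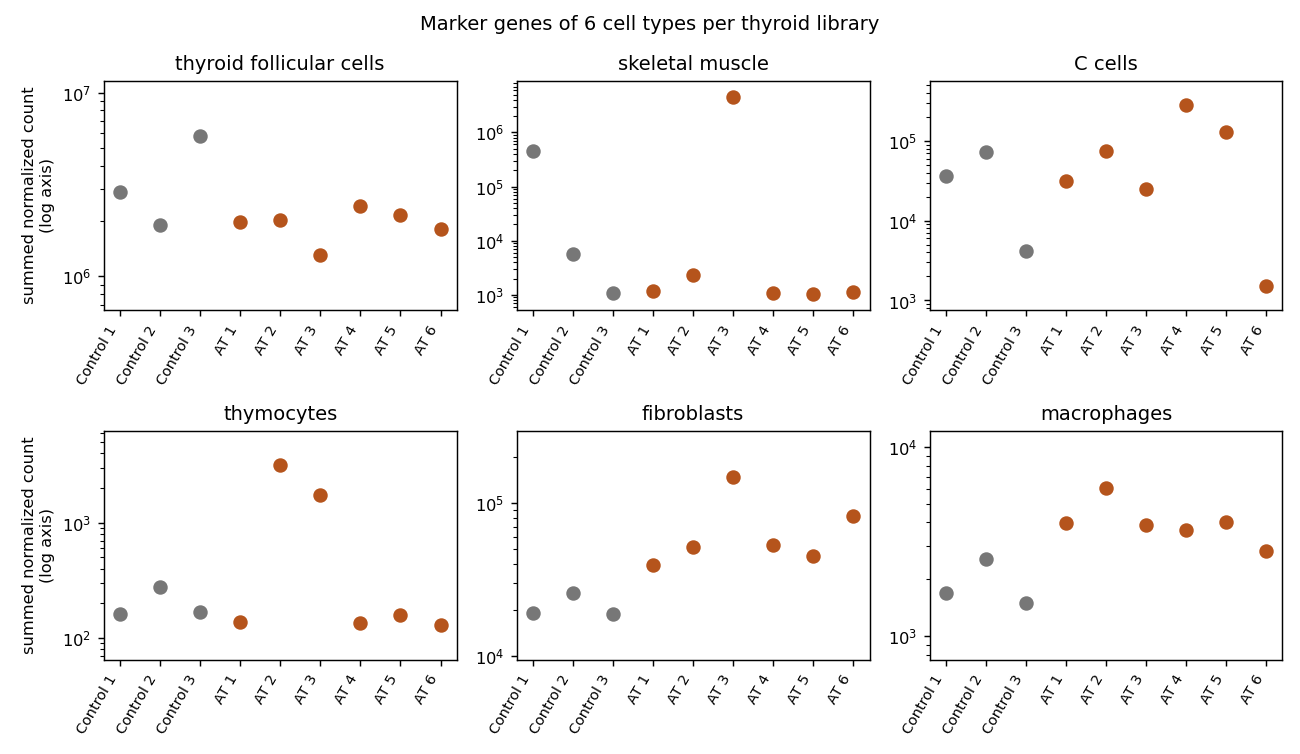
Each panel gives the summed normalized counts (log axis) of the marker genes of a cell type in the 3 control (grey) and 6 AT (orange) libraries. Skeletal muscle genes stand out in AT 3 and Control 1 and thymocyte genes in AT 2 and AT 3, while fibroblast and macrophage sums are higher in all 6 AT libraries than in the 3 controls.

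Genes of hormone synthesis had a median log2FC of −0.36 over 10 tested members of the 11 listed, and −0.05 with TMM. The median was −0.73 without Control 2 and 0.45 without Control 3. With all controls, none of the members named here reached both thresholds. TG was at 2615511, 1538057 and 5237425 normalized counts in the controls and between 1191931 and 2203866 (median 1773528) in the AT lambs. Control 2 lay within the AT range and Control 3 far above it. The log2FC of TG was −0.84 ± 0.27 (adjusted p = 0.0477), under the fold threshold. It was −0.24 without Control 3 and −1.17 without Control 2 (adjusted p = 0.00455), and the latter met both thresholds. The iodide transporter SLC5A5 followed the same order of controls, with 11645, 2632 and 64052, against an AT range of 1983 to 13769. Its log2FC was −1.91 ± 0.83 (adjusted p = 0.127), −0.04 without Control 3 and −2.46 without Control 2 (adjusted p = 0.0469). DUOX1 had a log2FC of −0.80 (adjusted p = 0.0708), DUOX2 of −0.12 and IYD, which recovers iodide from iodotyrosines, of 0.00. SLC26A7, an anion transporter of the thyrocyte, was the only tested member above 0, with controls at 20919, 9653 and 15679 and AT lambs between 18283 and 35695 (log2FC 0.76 ± 0.31, adjusted p = 0.104).

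**Figure D3:**
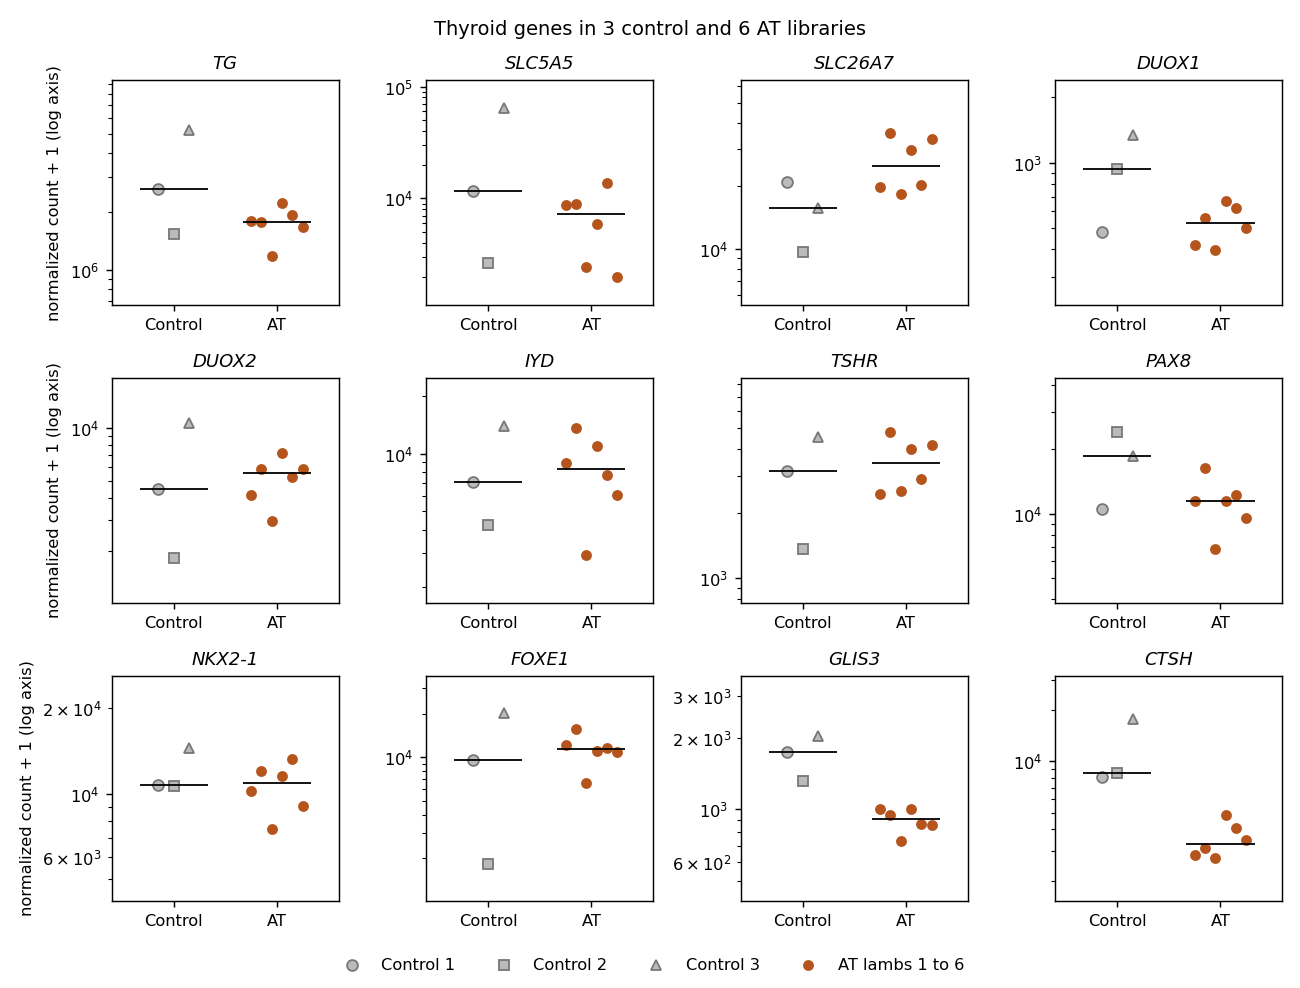
Normalized counts plus 1 (log axis) of 12 thyroid genes in the 3 controls (grey, a symbol per lamb) and the 6 AT lambs (orange), with the median of each group as a line. GLIS3 and CTSH do not overlap between the groups, while for TG, SLC5A5 and DUOX2 Control 3 is the highest library and Control 2 lies near or below the AT lambs.

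Of 25 tested regulators of the thyroid, 0 were called by edgeR at both thresholds, and 19 had a log2FC below 0. GLIS3, a zinc finger factor that works downstream of TSHR, was at 1740, 1322 and 2039 in the controls and between 735 and 1003 (median 907) in the AT lambs. The groups did not overlap and its log2FC of −0.92 ± 0.16 (adjusted p = 0.00251) missed only the fold threshold. The same held for PRKAR1A, a regulatory subunit of protein kinase A, at −0.76 ± 0.17 (adjusted p = 0.00851), and for the cyclic AMP phosphodiesterase PDE8A at −0.74 ± 0.21 (adjusted p = 0.0248). CREM, a cyclic AMP responsive factor, was at 1274, 1678 and 1558 in the controls against 570 to 1186 (median 708), and its log2FC rounded to −1.0 (adjusted p = 0.0187) without reaching the threshold. TSHR (0.20 ± 0.33), PAX8 (−0.64 ± 0.27), NKX2-1 (−0.17 ± 0.19) and FOXE1 (0.10 ± 0.45), the receptor and the factors that define the follicular cell, had adjusted p-values from 0.115 to 0.906.

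Among 15 tested genes of hormone release and conversion, of 20 listed, only CTSH was called with all controls. This is 6.67%, near the 7.04% of all genes. SLC7A8 of this list did not pass the read filter, at 33.4, 79.5 and 37.6 in the controls and 7.04 to 19.8 in the AT lambs. CTSH, a lysosomal cathepsin, was at 8114, 8549 and 17555 in the controls and between 2736 and 4849 (median 3290) in the AT lambs. It fell by 1.70 ± 0.25 on the log2 scale (adjusted p = 0.00129), 3.25-fold, and the call held without each control and with TMM (−1.46). CTSB had a log2FC of −0.83 (adjusted p = 0.0825), which was −0.16 without Control 3 and −1.21 without Control 2 (adjusted p = 0.00571). DIO2, which converts thyroxine to the active hormone, was at 95.8, 226 and 131 in the controls and between 17.9 and 109 in the AT lambs, with an overlap of the groups and an adjusted p of 0.0711 (log2FC −1.44 ± 0.52). The thyroid hormone receptor THRA had a log2FC of 0.03 ± 0.19.

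Many genes that fold proteins in the ER were lower in AT thyroid. Of 47 tested members 24 were called lower and 0 higher, 51.1% against 7.04% of all genes, with a median log2FC of −1.01. HERPUD1, which serves the removal of misfolded proteins from the ER, was at 7547, 9225 and 19926 in the controls and between 3093 and 3947 (median 3644) in the AT lambs. The AT lambs lay close together and under every control, and HERPUD1 fell by 1.79 ± 0.23 on the log2 scale (adjusted p = 0.000578). SELENOS, a selenoprotein of the same removal pathway, fell by 1.38 ± 0.19 from 2869, 2172 and 4204 to a median of 1186 (adjusted p = 0.000929), and the calls of both held without each control. DNAJB11, a cochaperone of the ER, fell by 1.66 ± 0.30, and SELENOK by 1.08 ± 0.17.

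The count of called members depended on Control 3. HSP90B1, an abundant ER chaperone, was at 29005, 22189 and 96266 in the controls and between 9477 and 23151 (median 12670) in the AT lambs, so Control 2 lay within the AT range. Its log2FC of −1.77 ± 0.38 (adjusted p = 0.00794) was −0.83 without Control 3. Without Control 3, 4 of the 47 members were called lower and the median was −0.32, whereas without Control 1 24 and without Control 2 32 were called. With TMM 13 were called lower (median −0.75), and 3 members held without each control. Secretory pathway transport genes showed the same dependence, with 10 of 53 called lower (18.9% against 7.04% of all genes, median −0.78). There were 31 called lower without Control 2, 3 with TMM, 1 without Control 3 and 18 without the muscle-rich libraries. SAR1A, the GTPase that builds COPII vesicles at the ER, held without each control, at 2680, 2773 and 4309 against 1129 to 1388 (log2FC −1.34 ± 0.15, adjusted p = 0.000308). SEC61A1, the channel through which new proteins enter the ER, fell by 1.08 ± 0.20 with all controls and was at −0.69 without Control 3.

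Many genes of ribosome biogenesis were lower, and their count depended less on which control was left out. Of 77 tested members 33 were called lower and 0 higher, 42.9% against 7.04% of all genes, and 75 had a log2FC below 0 (median −0.95, and −0.81 with TMM). Between 25 and 35 were called when a control was left out, 21 with TMM, and 10 held without each control. PES1, needed for the large ribosomal subunit, was at 2492, 4142 and 2882 in the controls and between 1027 and 1510 (median 1223) in the AT lambs (log2FC −1.35 ± 0.18, adjusted p = 0.000793). GAR1, a protein of the particles that modify ribosomal RNA, was at 692, 554 and 957 against 224 to 361 (log2FC −1.38 ± 0.19). NOP2, a methyltransferase of ribosomal RNA, was at 1360, 1856 and 1598 against 636 to 927 (log2FC −1.14 ± 0.16). In all 3 genes every AT library lay below every control. The 61 tested cytosolic ribosomal protein genes, the parts of the finished ribosome, had a median of −0.05 and a lowest log2FC of −0.51, and 0 were called by edgeR. RPL19 is a member of this list and sets the scale, and reads of near-identical copies of these genes are counted at each copy.

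Genes of iron storage and defence against oxidation held the gene of lowest adjusted p among those named. FTL, the light chain of the iron store ferritin, lies on chromosome 14 from 58985629 to 58987212 of the Oar_rambouillet_v1.0 assembly and was at 52391, 36091 and 65100 in the controls. In the AT lambs it was between 6614 and 9185 (median 8184), so that the highest AT lamb was far under the lowest control. FTL fell by 2.67 ± 0.21 on the log2 scale, 6.35-fold (adjusted p = 1.55e-05), by 2.45 with TMM, and the call held without each control. Ferritin genes have near-identical copies in mammals, and a read with several mapping places was counted at each place. Of 38 tested antioxidant enzymes and selenoproteins 11 were called lower and 0 higher (28.9% against 7.04%, median −0.58), with 6 called with TMM and 5 without Control 3. SRXN1, which repairs oxidized peroxiredoxins, was at 3752, 2643 and 2584 against 535 to 1350 (median 729) and fell by 1.88 ± 0.24 (adjusted p = 0.000591). HMOX2, a heme oxygenase, was at 1606, 1798 and 1439 against 518 to 937 (log2FC −1.36 ± 0.32, adjusted p = 0.0124). SRXN1 and HMOX2 held without each control, while PRDX1, a peroxiredoxin, fell by 1.11 ± 0.23 with Control 2 inside the AT range.

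**Figure D4:**
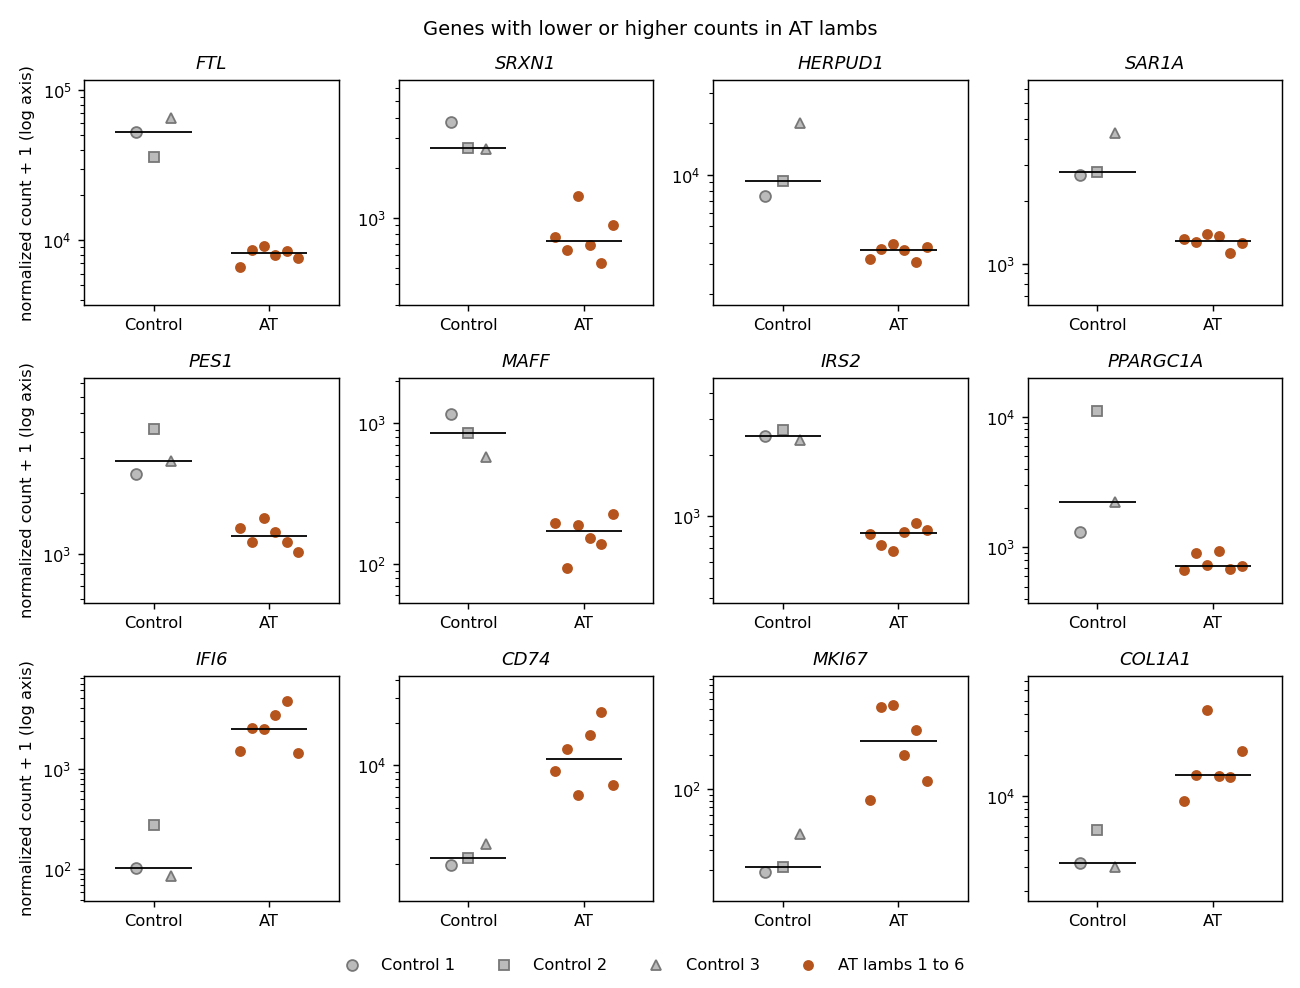
Normalized counts plus 1 (log axis) of 12 genes in the 3 controls (grey, a symbol per lamb) and the 6 AT lambs (orange), with the median of each group as a line. In all 12 the groups do not overlap, with FTL, SRXN1, HERPUD1, SAR1A, PES1, MAFF, IRS2 and PPARGC1A lower and IFI6, CD74, MKI67 and COL1A1 higher in AT lambs.

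A minority of the early response genes, which cells switch on within minutes of a hormone or stress signal, were lower. Of 36 tested members 9 were called lower and 0 higher (25% against 7.04%, median −0.72, and 5 with TMM). The classic members FOS (log2FC 0.01), EGR1 (−0.08) and JUN (0.40) were not called. MAFF, a small transcription factor of the stress response, was at 1172, 850 and 577 in the controls and between 93.6 and 225 (median 170) in the AT lambs (log2FC −2.39 ± 0.26, adjusted p = 0.000288). SIK1, a kinase that cyclic AMP induces, was at 1672, 1338 and 2615 against 388 to 672 (log2FC −1.92 ± 0.28, adjusted p = 0.00147). MAFF and SIK1 held without each control. Of 18 tested glucocorticoid targets 6 were called lower and 0 higher (33.3% against 7.04% of all genes, median −0.92). CEBPD (−1.11 ± 0.21) and NFKBIA (−1.08 ± 0.20) were among them, but only 1 target was called without Control 2 and 2 with TMM. The clock gene CRY1 fell by 1.39 ± 0.27 and held without each control. It was 1 of 2 called among 19 tested clock genes (10.5% against 7.04% of all genes). The sources used here do not give the hour at which each lamb was sampled.

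In the insulin and insulin-like growth factor axis 7 of 25 tested genes were called lower and 0 higher (28% against 7.04% of all genes), with a median of −0.16 near that of all genes. IRS2, the adaptor of the insulin receptor, was nearly equal in the controls at 2476, 2639 and 2359 and was between 673 and 928 (median 825) in the AT lambs. It fell by 1.63 ± 0.23 on the log2 scale (adjusted p = 0.00109), and by 1.59 to 1.67 when a control was left out. STC1, a secreted glycoprotein that inhibits the protease PAPPA, was at 905, 3827 and 1378 against 305 to 481 (log2FC −2.36 ± 0.31). PAPPA itself, which frees the growth factors from their binding proteins, was at 99.0, 226 and 94.6 against 24.2 to 51.3 (log2FC −1.93 ± 0.38). All 3 genes held without each control.

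Among the largest falls were genes with very high counts in Control 2, the library with the highest parathyroid marker sum. The part of its tissue composition in these falls was not tested. PPARGC1A, the coactivator that drives mitochondrial and thermogenic genes, was at 1308, 11011 and 2213 in the controls and between 669 and 938 (median 719) in the AT lambs. The groups did not overlap and the call held without each control, but the log2FC was −2.65 ± 0.44 with all controls (adjusted p = 0.00229) and −1.20 without Control 2. NUPR1, a stress-induced regulator, was at 2600, 11115 and 1343 against 496 to 834 (log2FC −2.93 ± 0.50, and −1.58 without Control 2). OSGIN1, an oxidative stress gene, was at 1188, 11225 and 1343 against 184 to 399 (−3.98 ± 0.53, and −2.13 without Control 2). The splicing factor SRSF11 (27502, 149481 and 25652 in the controls) and the lipase PNPLA2 (5261, 44148 and 5175) were called at −1.90 and −1.86, but their log2FC was −0.56 and −0.06 without Control 2. DDIT3, a factor of the stress response, fell by 1.39 ± 0.28 and was at −0.92 without Control 2. Of 28 tested targets of ATF4, 5 were called lower and 1 higher (21.4% against 7.04% of all genes, median −0.48). The target called higher was ALDH1L2, a mitochondrial folate enzyme. It was at 63.5, 46.8 and 64.8 in the controls and 133 to 603 in the AT lambs (log2FC 2.10 ± 0.49).

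Other large falls were those of DNAH1, SFRP5, ANOS1, UPP1 and UCP1, all of which held without each control. DNAH1, a heavy chain of axonemal dynein, was at 585, 1079 and 5204 in the controls and between 9.61 and 164 (median 130) in the AT lambs (log2FC −4.29 ± 0.76, adjusted p = 0.00342), and −2.83 without Control 3. Of 8 tested markers of ciliated epithelium 0 were called by edgeR. SFRP5, a secreted inhibitor of WNT signalling, was at 1438, 2999 and 849 against 45.6 to 162 (log2FC −4.02 ± 0.77, adjusted p = 0.00504). ANOS1, an extracellular matrix protein, fell by 3.01 ± 0.43, and UPP1, which cleaves uridine, by 2.94 ± 0.56. UCP1, the uncoupling protein of brown fat, was low in thyroid, at 170, 589 and 333 in the controls and between 9.25 and 55.3 (median 17.1) in the AT lambs (log2FC −3.79 ± 0.97, adjusted p = 0.0182). Summed adipocyte markers, which include UCP1, overlapped between the groups (2405 to 11948 in controls and 992 to 10861 in AT lambs). UCP1 was the only 1 of 9 tested adipocyte markers that was called (11.1% against 7.04% of all genes). The part of fat content in the fall of UCP1 was not tested.

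The calls among genes of oxygen sensing, glycolysis and the respiratory chain depended on the muscle-rich libraries, AT 3 and Control 1. HIF1A, the oxygen-sensing factor, fell by 1.28 ± 0.21 and NDRG1, a hypoxia-responsive gene, by 1.36 ± 0.29, as 2 of 3 called among 41 tested genes of hypoxia and glycolysis (7.32% against 7.04% of all genes). Without the muscle-rich libraries 15 of the 41 were called lower, with a median of −0.73 against −0.28 for all genes. In that fit the lower calls over all 16215 genes also rose, from 797 to 1411. Of 57 respiratory chain genes 0 were called by edgeR with all libraries (median −0.25) and 13 were called lower without the muscle-rich ones (median −0.80). Of 28 cholesterol synthesis genes 0 were called by edgeR (median −0.12), and 1 was called lower without these libraries.

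Interferon-stimulated genes had the highest median log2FC of the pathway lists, 1.35 over 38 tested members (1.52 with TMM). Of these, 12 were called higher and 0 lower, 31.6% against 2.12% of all genes called higher. For 21 of the 38 every AT library was above every control, as for 3.39% of all genes, and 5 held without each control. Leaving out Control 2 or Control 3 gave 6 calls each. IFI6, an interferon-induced membrane protein on chromosome 2 from 255170913 to 255174624, was at 102, 278 and 85.6 in the controls and between 1427 and 4674 (median 2491) in the AT lambs. It rose by 4.11 ± 0.69 on the log2 scale, 17.3-fold (adjusted p = 0.00255). IFIT1, which binds viral RNA, was at 22.6, 6.24 and 24.6 against 199 to 320 (log2FC 3.76 ± 0.88, adjusted p = 0.0122), and IFI44L at 187, 78 and 159 against 409 to 1055 (log2FC 2.27 ± 0.55, adjusted p = 0.014). In all 3 genes the lowest AT lamb was above the highest control. The cold lambs of the same age overlapped the AT lambs for IFI6 but ranged more widely (1272 to 7722).

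Some genes of antigen presentation and of macrophages were also higher. CD74, the chaperone of class II molecules, was at 1967, 2219 and 2769 in the controls and between 6171 and 23890 (median 11143) in the AT lambs (log2FC 2.45 ± 0.56, adjusted p = 0.0112). CIITA, the transactivator of class II genes, was at 75.3, 48.3 and 93.3 against 165 to 427 (log2FC 1.96 ± 0.46). CD74 and CIITA were the 2 called of 15 tested antigen processing genes (13.3% against 2.12% of all genes called higher). Of 9 tested macrophage markers 3 were called higher (33.3% against 2.12% of all genes). These were C1QC (1.97 ± 0.42), C1QA (1.85 ± 0.40) and AIF1 (1.12 ± 0.29), the first 2 of which are complement subunits and held without each control. The Fc receptor FCGR3A rose by 3.47 ± 0.58, from 23.7, 12.5 and 32.4 to between 154 and 430, and CD55, which protects cells from complement, by 2.78 ± 0.50. The summed macrophage markers were 1500 to 2551 in the controls and 2831 to 6109 in the AT lambs, and their part in the rise of the other immune genes was not tested.

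A set of cell division genes with low levels in the controls was higher in AT lambs. Of 68 tested cell cycle genes 19 were called higher and 0 lower, 27.9% against 2.12% of all genes called higher. Their median was 0.91, 22 were called with TMM, 12 held without each control, and 12 were called without the muscle-rich libraries. The replication genes MCM7 (log2FC −0.56), PCNA (−0.32) and MCM2 (0.56) were not called. MKI67, the proliferation marker on chromosome 22 from 51157024 to 51186314, was at 18.3, 20.3 and 40.2 in the controls and between 79.8 and 535 (median 260) in the AT lambs (log2FC 3.48 ± 0.73, adjusted p = 0.00694). TOP2A, the topoisomerase that untangles chromosomes, was at 57.0, 76.4 and 51.9 against 139 to 760 (log2FC 2.74 ± 0.57, adjusted p = 0.00688). The spindle checkpoint kinase BUB1 rose by 3.00 ± 0.49 and the kinetochore protein CENPF by 2.83 ± 0.71. AT 2 and AT 3, which held the most thymocyte markers, were the highest libraries for MKI67 (517 and 535), and the other 4 AT lambs were between 79.8 and 324, all above the controls. The part of these markers in the rise was not tested.

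Matrix genes moved in both directions, with 8 of 65 tested members called higher and 3 lower (16.9% against 7.04% of all genes, median 0.52). COL1A1, a chain of fibrillar collagen, was at 3217, 5625 and 3025 in the controls and between 9093 and 42353 (median 14145) in the AT lambs (log2FC 2.28 ± 0.65, adjusted p = 0.0293). COL3A1 was at 5476, 5275 and 5042 against 12707 to 52666 (2.18 ± 0.56), and COL1A2 rose by 2.49 ± 0.68. AT 3 was the highest library for these 3 collagens, and without Control 1 and AT 3, the muscle-rich libraries, the log2FC was 1.76 for COL1A1 (adjusted p = 0.0866), 1.82 for COL3A1 (adjusted p = 0.0388) and 1.95 for COL1A2 (adjusted p = 0.0632), so that COL1A1 and COL1A2 lost their calls. Without Control 3 all 3 lost them (adjusted p = 0.0593 to 0.102), as COL1A1 and COL1A2 did without Control 1. Without the muscle-rich libraries 5 matrix genes were called higher, and called fibroblast markers went from 5 of 10 to 1. The matrix proteoglycan PRELP held without each control, at 252, 111 and 366 against 621 to 1110 (log2FC 1.90 ± 0.34, adjusted p = 0.00314). TIMP2, an inhibitor of matrix proteases, was at 6384, 8380 and 12628 against 749 to 3594 and fell by 2.06 ± 0.41 (adjusted p = 0.00594). COL4A2, a chain of basement membrane collagen, was called at −1.02 ± 0.23 and was at −0.48 without Control 2. COL1A1, COL1A2, COL3A1 and THY1 (1.31 ± 0.36) are also listed as fibroblast markers, whose sum was 18825 to 25788 in the controls and 39582 to 147910 in the AT lambs. Of 8 tested nerve and glia markers 2 were called higher (25% against 2.12% of all genes). Of 33 tested endothelial genes 5 were called lower and 0 higher (15.2% against 7.04% of all genes). ROBO4 (−1.26 ± 0.29) and FLT1 (−1.07 ± 0.28) were among them, but 0 endothelial genes were called by edgeR with TMM and 1 without Control 3.

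**Figure D5:**
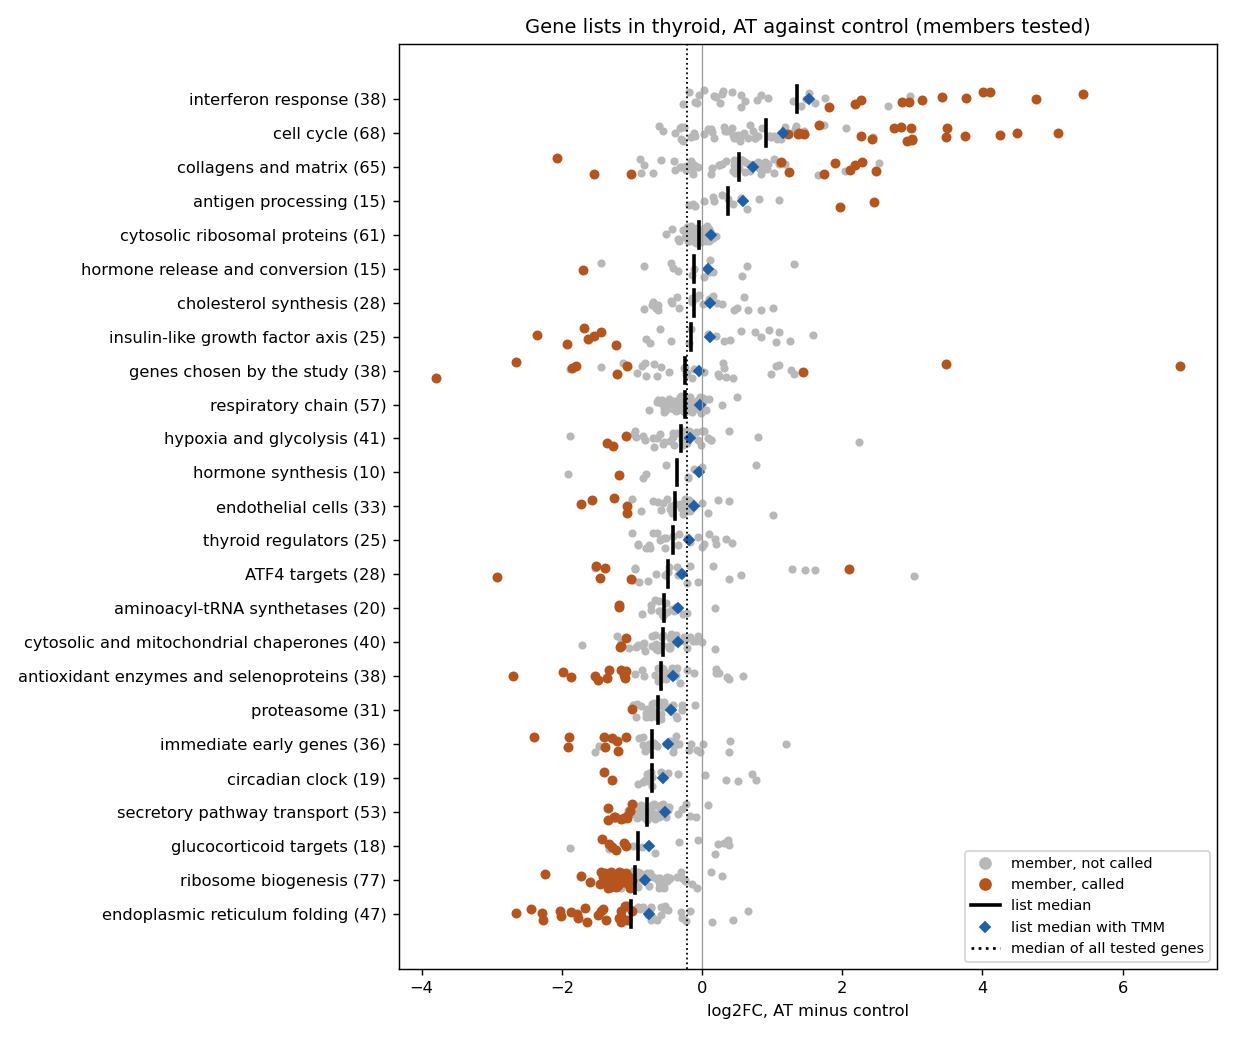
Each point is the log2FC, AT minus control, of a tested member of a gene list (orange where called), with the list median as a bar, the median with TMM as a blue diamond and the median of all tested genes (−0.21) as a dotted line. The lists run from interferon response (median 1.35) to endoplasmic reticulum folding (median −1.01).

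Of the 38 genes the study picked for thermogenesis and fat whitening, 3 were called higher and 6 lower in AT thyroid. This is 23.7% against 7.04% of all genes, with a median of −0.24. CYP1A1, an enzyme that oxidizes aromatic compounds and a target of the aryl hydrocarbon receptor, had the largest log2FC of the named genes. The controls held 6, 0 and 1 deposited reads of CYP1A1, and the AT lambs had between 19.7 and 668 normalized counts (median 325). All AT lambs were above all controls, and the fitted log2FC of 6.82 ± 1.32 (adjusted p = 0.0055) depends on the small count edgeR adds where a group is close to 0. The cold lambs had between 478 and 4139. BMP8B, a growth factor at 11.8, 9.36 and 22.0 against 25.1 to 69.6, rose by 1.44 ± 0.46 (adjusted p = 0.0456). FABP3, a fatty acid binding protein, was at 9241, 2936 and 30568 against 2932 to 5250 (log2FC −1.80 ± 0.43, and −0.57 without Control 3). NOS3, the endothelial nitric oxide synthase, was called at −1.08 ± 0.31 and the adrenergic receptor ADRA1A at −1.21 ± 0.36, and for both the groups overlapped. The reference genes themselves had log2FC of 0.08 (ACTB), −0.07 (RPL19) and −0.17 (HUWE1). These genes set the size factors, so their values near 0 cannot show whether they were stable. With TMM their median was 0.10, against −0.01 for all genes.

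Between AT and cold lambs, which were of the same age, 0 of 16215 genes were called by edgeR (0%), 661 had an unadjusted p under 0.05, and the lowest adjusted p was 1. DESeq2's Wald test with the same size factors called 5 genes higher in AT, of which NKD2 and BCL11B are named here after their values were seen. NKD2 was between 137 and 677 in AT and between 81.9 and 127 in cold lambs, and BCL11B between 14 and 703 against 2.77 to 34.2. FTL was between 8546 and 16529 in cold lambs, overlapping the AT range. A p that misses the threshold does not show that AT and cold thyroid were alike.

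The AT effect in thyroid was also tested against that in BAT of the same lambs, with lamb as a block. Of 14449 genes tested in both tissues, 36 (0.249%) had a higher effect in thyroid and 518 (3.59%) a lower effect, and the median difference over all genes was −0.36. With TMM this median was −0.03 and the counts were 61 and 108, and 142 genes were called with both scalings. Leaving out a lamb moved the lower calls to between 210 (without AT 5) and 1804 (without Control 1), and the higher calls to 14 without AT 5. FTL differed by −2.47 ± 0.44 (adjusted p = 0.00989, and 0.025 with TMM), with a log2FC in BAT of −0.40 ± 0.32. NUPR1 differed by −3.37 ± 0.44 (adjusted p = 0.0018, and 0.00513 with TMM) with 0.70 ± 0.53 in BAT, and SFRP5 by −4.14 ± 0.79 (adjusted p = 0.0118, and 0.0299 with TMM) with −0.49 ± 0.65 in BAT. For GLIS3 the difference was −1.89 ± 0.36 (adjusted p = 0.0121, and 0.0423 with TMM), with 0.93 ± 0.36 in BAT. For IFI6 (−0.62, adjusted p = 0.318), PPARGC1A (−0.36, adjusted p = 0.768) and UCP1 (−0.17, adjusted p = 0.935) no difference between the tissues passed the test, and their log2FC in BAT was 4.80, −1.73 and −3.21.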

How the data were processed

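The authors deposited a table of raw read counts per gene, made from oligo(dT)-selected, 150-base paired reads of the BGISEQ-500. Per the labels and the study's methods, reads were checked with FastQC 0.11.9, trimmed with Trimmomatic 0.39, aligned with STAR 2.7.7a to Oar_rambouillet_v1.0 and counted with featureCounts (Subread 2.0.0). A read with several mapping places was counted at each place, and the strand setting is not given in the sources used here. Genes with near-identical copies and genes that overlap are therefore uncertain.

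Genes were tested where 10 or more thyroid libraries held 10 or more reads, in R 4.3.3 with edgeR 4.0.16 (robust quasi-likelihood test, 2-sided, all 15 thyroid libraries, group as the only term). The scale was set by size factors that DESeq2 1.42.0 computed from ACTB, RPL19 and HUWE1. The test of thyroid against BAT used both tissues with lamb as a block, because each lamb gave both tissues. Replicates are different lambs. The scripts were tested on simulated data with known log2 changes of 1.5 and 3. The thyroid comparison called 62.9% and 96.1% of the changed genes. The test of thyroid against BAT called 11.3% and 85.4%, so a missed call there does not show equal effects in the tissues. Total counts ran from 25062784 to 30124871 per thyroid library.

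The rule for named genes took all members of the 3 thyroid lists, and in each direction the 12 genes of largest log2FC among genes with a symbol that were called, did not overlap, held without each control and had a mean of at least 100 normalized counts in the higher group. It also took the 6 most abundant called genes in each direction, up to 4 called members of every other list by adjusted p in each direction (otherwise the 2 of lowest p), the reference genes and the 38 genes the study picked. The members and lists were chosen with earlier results of these data known. Alternatives were DESeq2's Wald test, TMM and median-of-ratios scaling, other filters and thresholds, each lamb left out, a fit without cold libraries and fits without the muscle-rich libraries. Some genes that the rule takes are not reported here.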

Additional observations from a re-analysis of the deposited data

Results flagged for a closer look

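For 7 named genes the AT effect in thyroid differed from that in brown adipose tissue by the interaction test of edgeR with lamb as a block. The difference, thyroid minus brown fat on the log2 scale, was −4.14 for SFRP5, −3.37 for NUPR1, −2.70 for ANOS1, −2.47 for FTL, −1.93 for CREM, −1.89 for GLIS3 and −1.42 for ROBO4. With TMM the adjusted p was under 0.05 for SFRP5, NUPR1, FTL and GLIS3, and it was 0.0679 for ANOS1, 0.0549 for CREM and 0.19 for ROBO4. The log2FC in brown fat was above 0 for NUPR1 (0.70), CREM (0.80) and GLIS3 (0.93). It was below 0 for SFRP5 (−0.49), ANOS1 (−0.27) and FTL (−0.40).

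In 11 of 91 genes examined a single AT lamb stood apart from the other 5, and chance gives such a lamb in about 1 in 20 groups. AT 3 was the highest for CREM (1186 normalized counts), HMOX2 (937), TNNI1 (42291) and KLHL40 (3478), the last 2 being muscle genes in the library richest in muscle markers. AT 4 was the highest for NFKBIA (2995) and CEBPD (6946), and AT 1 for ROBO4 (3382) and NOS3 (445). AT 5 was the lowest for CYP1A1 (19.7) and COL4A2 (14298), and AT 6 for DNAH1 (9.61).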

How the results depend on the processing

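Against 344 genes called higher and 797 lower in AT thyroid, TMM scaling gave 518 and 385, and the fit without cold libraries 92 and 234. DESeq2 called 529 higher. Median-of-ratios scaling gave 400 lower, adjusted p alone 2215, the muscle-rich libraries left out 1411, and TMM with Control 2 left out 268, the last 2 chosen after seeing the data. Leaving out each lamb in turn gave 263 to 372 higher and 613 to 1210 lower. Between AT and cold lambs DESeq2 called 5 genes higher and edgeR 0. For thyroid against brown fat (36 higher and 518 lower), TMM gave 61 and 108, leaving out each lamb 14 to 38 higher and 210 to 1804 lower, and the fit with no replicate block 39 and 682. No other paired analysis was possible because AT and control lambs were different animals. Of 91 named genes 11 lost their call with TMM, 22 with TMM and Control 2 left out, 18 without cold libraries, and 6, 11 and 13 without Controls 1, 2 and 3. TNNI1 ranged from −2.47 without AT 3 (edgeR adjusted p = 0.0301) to 5.79 without Control 1, and PNPLA2 was at 0.27 with TMM and Control 2 left out. The cause of these changes was not tested. With 3 controls, a missed call does not show that a gene was unchanged.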
